A study of Homo sapiens with 10 samples.

Results

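ID1 siRNA was compared with control siRNA in A549, a human lung adenocarcinoma line that the labels describe as K-Ras mutant, on the 4 arrays of stimulated A549 cells among the 10 arrays of the series. The arrays were taken by their titles, 1 per combination of siRNA (control or ID1) and stimulus (nicotine or EGF). Cells had been deprived of serum for 48 h and then received 1 µM nicotine or 100 ng/ml EGF for 18 h, so starvation, an siRNA and a stimulus are common to all 4. Each ID1 siRNA array was set against the control siRNA array with the same stimulus, which gave 2 matched pairs. The same 2 pairs in H1650, an EGFR mutant lung carcinoma line, gave 4 further arrays for comparison, and arrays without a stimulus were not used. The siRNA sequence is not given, and nothing in the labels says that the arrays came from separate cultures. Errors and p-values therefore rest on how far matched pairs differ from each other, pooled over both lines, which may be technical. They are moderated, so that each gene's spread is also drawn towards that of other genes of like signal.

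ID1 is a helix-loop-helix protein without a DNA-binding region. It binds basic helix-loop-helix transcription factors such as the E proteins, keeps them from their E-box sites, and is known from proliferating and invasive epithelial tumour cells. Interferons are secreted proteins made after cytosolic or endosomal sensors detect foreign RNA or DNA. They act through receptors on the same and neighbouring cells, STAT and IRF factors carry the signal to interferon-stimulated response elements, and the genes switched on there include antiviral effectors, antigen presentation genes and chemokines. NF-kB is a second transcription factor family that such sensors and cytokine receptors engage.

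The response to ID1 siRNA in A549 was led by interferon-stimulated genes and by chemokines, and genes of mitosis fell. The 250 bases upstream of the transcription start are shown for 5 genes of these groups that were called, meaning a limma adjusted p under 0.05, because the short element searched for lies in that window. The sequences are RefSeq's, build GRCh38.p14, written 5′ to 3′ on the gene's strand. Capitals mark the core of the interferon-stimulated response element, GAAANNGAAA, in BST2, a membrane protein that holds budding virus particles (chr19:17405631-17405880 on the minus strand), in IFI44L, an interferon-induced protein (chr1:78620198-78620447 on the plus strand), and in IFITM1, a membrane protein that hinders virus entry (chr11:313790-314039 on the plus strand). They mark the NF-kB element GGGANTTTCC in CXCL6, a neutrophil chemokine (chr4:73836428-73836677 on the plus strand), and CCAAT, the reverse complement of the searched ATTGG, in PRC1, which bundles microtubules at the spindle midzone (chr15:90994536-90994785 on the minus strand).
BST2: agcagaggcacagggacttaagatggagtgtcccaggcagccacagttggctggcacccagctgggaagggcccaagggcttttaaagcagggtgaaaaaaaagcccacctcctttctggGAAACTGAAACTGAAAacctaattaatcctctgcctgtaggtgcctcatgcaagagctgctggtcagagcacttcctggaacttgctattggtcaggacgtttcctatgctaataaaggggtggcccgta
IFI44L: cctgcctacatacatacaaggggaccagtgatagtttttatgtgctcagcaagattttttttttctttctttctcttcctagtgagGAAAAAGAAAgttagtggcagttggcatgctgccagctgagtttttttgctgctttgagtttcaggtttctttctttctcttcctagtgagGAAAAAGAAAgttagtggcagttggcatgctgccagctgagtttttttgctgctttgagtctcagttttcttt
IFITM1: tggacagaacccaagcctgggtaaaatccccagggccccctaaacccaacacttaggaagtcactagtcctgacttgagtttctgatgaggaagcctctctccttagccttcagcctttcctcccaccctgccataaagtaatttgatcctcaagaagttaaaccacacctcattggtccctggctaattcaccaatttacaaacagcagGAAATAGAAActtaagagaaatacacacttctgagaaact
CXCL6: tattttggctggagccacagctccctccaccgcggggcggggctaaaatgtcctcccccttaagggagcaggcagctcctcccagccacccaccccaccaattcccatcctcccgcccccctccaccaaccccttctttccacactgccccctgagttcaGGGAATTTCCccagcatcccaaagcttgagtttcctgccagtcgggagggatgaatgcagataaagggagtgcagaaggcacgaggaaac
PRC1: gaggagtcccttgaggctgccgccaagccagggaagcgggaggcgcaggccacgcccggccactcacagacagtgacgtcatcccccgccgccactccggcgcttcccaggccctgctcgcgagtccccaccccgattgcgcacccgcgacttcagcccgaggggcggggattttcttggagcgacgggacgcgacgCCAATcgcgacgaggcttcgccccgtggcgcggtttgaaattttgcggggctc

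The 2 matches in BST2 overlap each other and start 130 and 124 bases before the transcription start. Those in IFI44L start 164 and 73 bases before it and sit in a repeated stretch. IFITM1 has 1 match, 40 bases upstream, CXCL6 has 1 at 90 and PRC1 has 1 at 53. Motifs were searched on both strands in the same window of every gene in the RefSeq promoter table. GAAANNGAAA was present for 3.27% of the 10190 tested genes with a window, for 7.22% of the 1399 called higher in A549 and for 2.39% of the 1211 called lower. Among antiviral effectors 26 of 42 had it (61.9%), and among MHC class I and antigen processing genes 7 of 17 (41.2%). Of 39 spindle, kinetochore and cytokinesis genes, 0 had it. Counted by window, it was in 2.39% of those of tested genes, 4.95% for genes called higher and 50% for antiviral effectors. GGGANTTTCC was present for 0.795% of tested genes, for 1.93% of those called higher and for 0.33% of those called lower. It was present for 5 of 10 chemokines and for 2 of 7 interleukins and growth cytokines. The sets at least 2-fold changed in both pairs were alike, with 3.21% of 374 higher genes and 2 of 61 lower ones (3.28%). ATTGG, on either strand, was present for 41.3% of tested genes and for 29 of 39 spindle genes (74.4%). Shares were 41.4% for genes called higher, 44.3% for those called lower and 34.4% for those at least 2-fold lower in both pairs. MHC class I and antigen processing genes, which rose, had it in 10 of 17 (58.8%). The E-box CANNTG, the site that E proteins read, was present for 61.1% of tested genes, 64.4% of those called higher and 59.1% of those called lower. Among genes at least 2-fold changed in both pairs it was present for 71.7% of 374 higher and for 26 of 61 lower (42.6%). The narrower E-box CAGGTG did not part these 2 sets, at 27.8% of the higher and 26.2% of the lower. It was present for 21.1% of tested genes, 22.4% of those called higher and 17.8% of those called lower. These shares describe letters in a short window and not bound sites.

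ID1 itself, the targeted gene, had a signal of 3720 with control siRNA and 1343 with ID1 siRNA under nicotine, and of 3049 and 1343 under EGF. Both ID1 siRNA arrays were below both control arrays. The log2 change was -1.33 ± 0.11 (moderated SE, 2 pairs, limma adjusted p = 1.19e-04), which leaves signal well above the array median. In H1650 ID1 went from 4964 to 881 under nicotine and from 5121 to 1031 under EGF, a log2 change of -2.40. The change was smaller in A549 by 1.08 (adjusted p = 0.00397, limma test of the difference between lines, and 0.0794 without the intensity trend in that test).

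The other ID genes moved in both directions. ID2, a family member with the same dominant-negative action, fell from 9087 to 4356 and from 13553 to 4321, a log2 change of -1.35 ± 0.17 (limma adjusted p = 0.00106), and its other probe set gave -0.89. ID3 rose by 0.66 ± 0.10 (adjusted p = 0.00247), with 4646 and 5256 on the control arrays against 7789 and 7800 with ID1 siRNA. ID4 was at 76.6 and 68.6 with control siRNA and at 305 and 239 with ID1 siRNA, a rise of 1.90 ± 0.24. Groups did not overlap for any of these 4 genes, which is common with 2 arrays a group: of all genes tested, 34.8% had both ID1 siRNA arrays above both controls and 27.5% had both below. TCF3, which encodes the E proteins E12 and E47, rose by 0.47 (adjusted p = 0.0259), and TCF12, another E protein, had a change of -0.20 that was not called. Of 19 ID and bHLH genes tested, 6 were called higher and 2 lower, beside 13.7% higher and 11.3% lower of all genes tested.

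Across 12514 genes tested, 1714 were called higher with ID1 siRNA in A549 (13.7%) and 1415 lower (11.3%). Every count of list members called in A549 is to be read beside these shares. All 3129 called genes moved the same way in both pairs, but the fit ensures this. A gene with opposite signs in the pairs has too large a spread to reach a call. Changes to higher values were larger: 476 genes were at least 2-fold higher in both pairs (3.80%), against 71 at least 2-fold lower in both (0.567%). Of the calls, 559 were lower by under 0.5 on the log2 scale and 312 higher by under 0.5. The pairs were alike across genes, with a Pearson r of 0.64 and a Spearman rho of 0.64, a description over genes that share arrays and are not independent replicates. Another 31 genes were at least 2-fold changed in opposite directions (0.248%), and 28 of these had a control or ID1 siRNA mean under the filter on low signals.

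**Figure D1:**
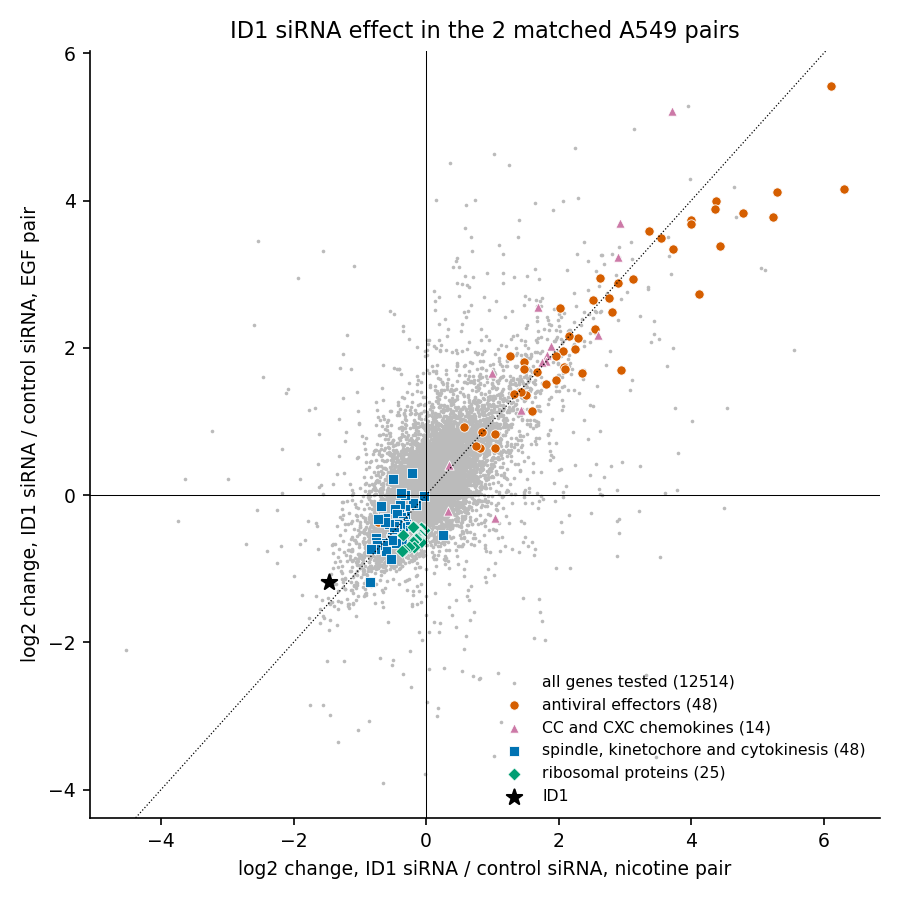
Log2 change with ID1 siRNA in the nicotine pair (x axis) and in the EGF pair (y axis) for the 12514 genes tested in A549, 1 point per gene, with 48 antiviral effectors, 14 chemokines, 48 spindle, kinetochore and cytokinesis genes, 25 ribosomal protein genes and ID1 marked, and a dotted line where the pairs are equal. Effectors and chemokines reach up and to the right among the 476 genes at least 2-fold higher in both pairs, and spindle and ribosomal genes lie just below 0.

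Array measures moved with the siRNA as well, and small changes depended on the scaling. Each array had been scaled to a trimmed mean of 500, and the median signal was 65.2 and 61.2 on the control arrays and 78.5 and 75.9 on the ID1 siRNA arrays. With each array centred on its own median instead, the median change of all genes went from 0.05 to -0.24 and the share of calls that were higher from 54.8% to 19.2%. Without the intensity trend in the test that share was 68.3%. Dim genes tended up and bright genes down: the dimmest of 10 equal groups of genes by signal, with a median of 84.9, had a median change of 0.24 under nicotine and 0.34 under EGF, and the brightest group, with a median of 7824, had -0.16 and -0.40. In the brightest group the EGF control array was brighter than the nicotine control array by 0.28. The hybridization spike bioB was 1.51 and 1.62 times as bright on the ID1 siRNA arrays as on their controls, and cre 0.98 and 0.78 times. The part of the spikes and of array brightness in any change was not tested. Counts under other scalings are given beside the groups with small changes. Of the genes named here, CDK6, GBP2, HMOX1, IL10RB, STAT3 and TCF3 were no longer called with median centring, and GBP2, IDO1, IL10RB, PSMB6, PSMB7, TBK1 and TCF3 were no longer called with quantile normalization.

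**Figure D2:**
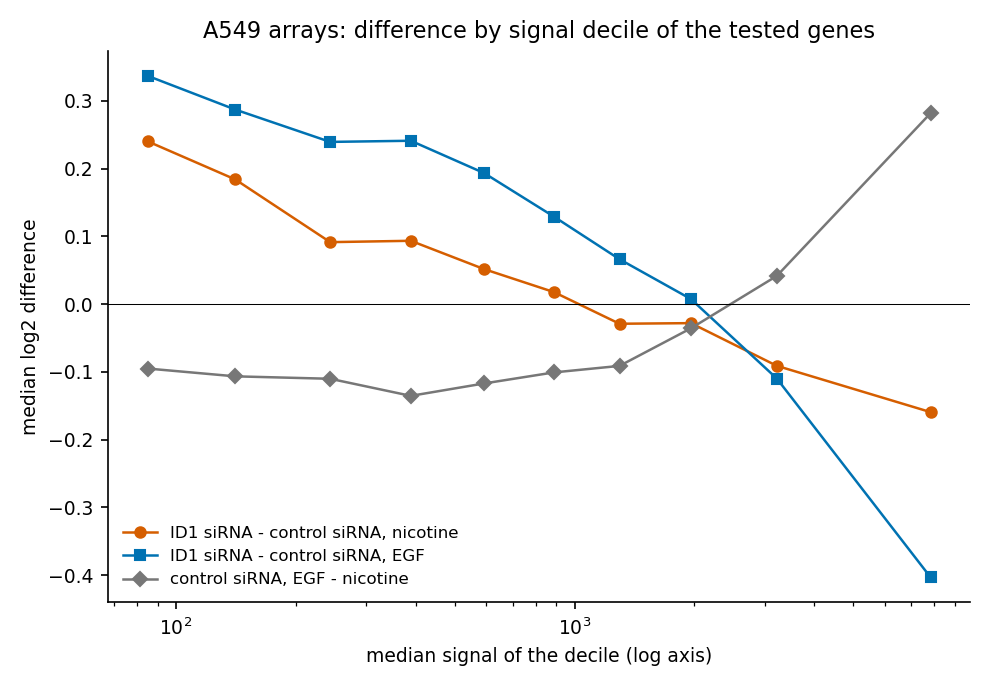
Median log2 change of tested genes in 10 equal groups by signal (x axis, log scale), for the nicotine pair, the EGF pair, and the EGF control against the nicotine control. The pair lines run from above 0 among dim genes to -0.16 and -0.40 among the brightest, where the control difference reaches 0.28.

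Interferon genes themselves were near the floor of the array. IFNB1, the type I interferon of epithelial cells, was too dim to test, at 2.70 and 2.24 with control siRNA and 62.3 and 111 with ID1 siRNA. IFNL2, a type III interferon, was at 54.0 and 76.9 against 258 and 457, at least 4.85-fold higher (limma adjusted p = 0.00206). IFNL1 was at 61.5 and 45.7 against 152 and 257, at least 3.13-fold higher. "At least" marks a gene whose lower group lies under the filter, and sets the bright group against the dim value or the array median, whichever is larger. Type III interferons signal mainly in epithelium, and their ID1 siRNA values stood above both controls, as for 34.8% of all genes tested.

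Among receptors, IFNGR1, the ligand-binding chain of the type II interferon receptor, rose from 1977 to 7662 and from 1640 to 7147, a change of 2.04 ± 0.10 (adjusted p = 9.34e-06). IFNGR2, its signalling chain, rose by 0.77, and IL10RB, a chain of the type III interferon receptor, by 0.40. IFNAR1, of the type I receptor, had a change of 0.45 that was not called. In all, 5 of 12 tested interferons and receptors were higher and 0 lower.

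The list of RNA and DNA sensors and adaptors was partly raised, 6 of 13 higher and 1 lower, with a median of 0.61 beside 0.05 over all genes tested. The 6 include LGALS3BP (1.68), which is not itself a sensor. IFI16, a DNA sensor, rose from 379 to 4791 and from 592 to 5625, by 3.45 ± 0.12 (limma adjusted p = 2.18e-06). IFIH1, which encodes the long double-stranded RNA sensor MDA5, was at 116 and 225 with control siRNA and 1506 and 1802 with ID1 siRNA, a rise of 3.35 ± 0.16. TLR3, an endosomal double-stranded RNA receptor, was at least 8.12-fold higher, and went from 55.9 to 479 under nicotine. In these genes the ID1 siRNA arrays were several times above both controls. RIGI, which reads RNA ends, rose less, by 0.87 ± 0.13, and STING1, the adaptor of DNA sensing, by 0.98. TBK1, the kinase that activates IRF3, fell by 0.39, and the adaptor MAVS had -0.28 and was not called.

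Of 15 STAT and IRF factors tested, 6 were higher and 0 lower, with a median of 0.55. IRF7, which amplifies interferon transcription, rose from 471 to 2749 and from 963 to 4442, by 2.38 ± 0.26. IRF9, the DNA-binding part of the factor that interferon receptors activate, rose by 1.27 ± 0.14, from 856 and 1502 to 2468 and 3037. BATF2 rose by 2.06, IRF1 by 0.76 and STAT3 by 0.55, while IRF3, whose activity is set by phosphorylation, had -0.15 and was not called. The control arrays differed here too, with IRF7 and IRF9 brighter under EGF than under nicotine.

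Antiviral effectors, the proteins that block virus growth, rose almost throughout: 47 of 48 were higher and 1 was lower, beside 13.7% and 11.3% over all genes, and 41 were at least 2-fold higher in both pairs. The list median was 2.19, or 2.14 with genes dim in a group set to their bound, and it stayed between 1.90 and 2.19 under quantile normalization, median centring, a fit to A549 arrays alone, and a loess removal of the signal-dependent shift within pairs that was added after the data were seen. BST2 was at 21.7 or below on the control arrays and at 754 and 1024 with ID1 siRNA, at least 13.9-fold higher. IFI27, an interferon-induced mitochondrial protein, went from 303 to 11453 and from 1175 to 16152, a change of 4.51. CMPK2, a mitochondrial nucleotide kinase, rose by 4.19 ± 0.14, from 217 to 4516 and from 428 to 6842. The ID1 siRNA arrays of these genes lay far above both controls, by more than the pairs differed.

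The control arrays were not at 1 level in this group. For 44 of the 48 effectors the EGF control was above the nicotine control, and for 36 the rise was larger under nicotine. XAF1, an interferon-induced proapoptotic factor, shows the pattern, at 64.2 and 201 on the control arrays and 2512 and 3476 with ID1 siRNA, and its other probe sets rose by 1.79 to 4.10. RSAD2, which encodes viperin and blocks viral RNA synthesis, was at least 9.56-fold higher, from 30.7 to 492 and from 55.5 to 742. The member that fell was ZC3HAV1, a protein that binds CpG-rich viral RNA, by 0.55 ± 0.12 (adjusted p = 0.0132), but its other probe sets ranged from -0.04 to 0.95.

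**Figure D3:**
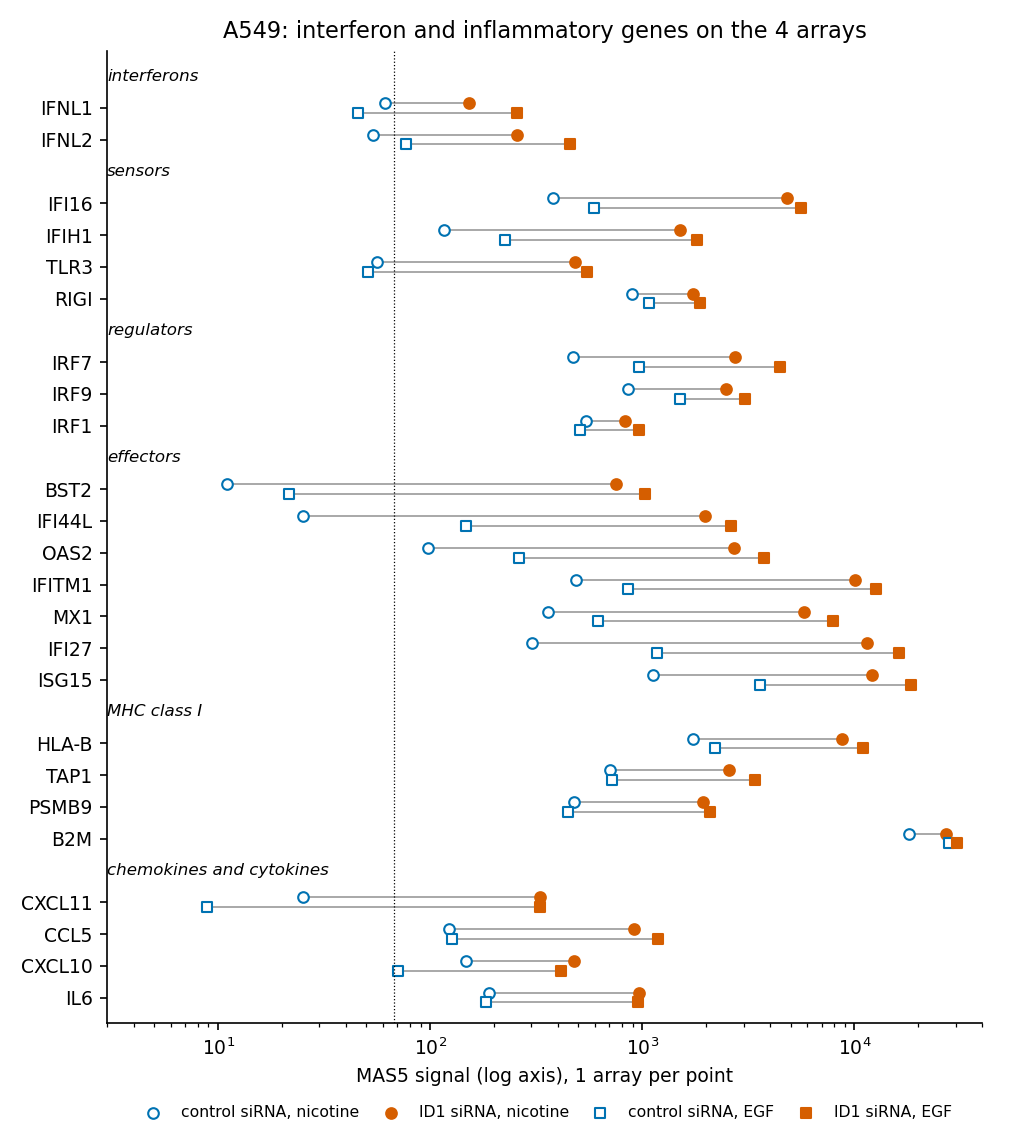
MAS5 signal on a log axis for 24 interferon, antigen presentation, chemokine and cytokine genes on the 4 A549 arrays, 1 point per array, with each control joined to its ID1 siRNA array. The dotted line is the filter at 67.7. ID1 siRNA points lie to the right in every pair shown, by least for B2M, whose change was not called.

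ISG15, a ubiquitin-like protein conjugated to other proteins during infection, rose by 2.90 ± 0.22, from 1123 to 12151 and from 3599 to 18488. Its conjugating enzyme UBE2L6 rose by 2.73, the ligases HERC5 and HERC6 by 2.28 and 1.76, and the protease that removes it, USP18, by 1.54. SOCS1, an inhibitor of interferon signalling, was at least 2.44-fold higher, and SOCS2, which acts mainly on growth hormone signalling, fell by 0.33. In that list 7 of 10 were higher and 1 lower. All 3 guanylate-binding proteins tested, GTPases that attack intracellular pathogens, were higher: GBP1 by 4.61, GBP3 by 3.16 ± 0.09 and GBP2 by 0.65. GBP1 had 2 other probe sets at 3.14 and 3.59. The APOBEC3 cytidine deaminases did not follow, with 0 of 5 higher and APOBEC3B lower by 0.46.

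Genes of MHC class I presentation, which display peptides from inside the cell, were higher in 15 of 20 and lower in 0, with a median of 1.33. HLA-B rose from 1734 to 8762 and from 2202 to 10946, by 2.33 ± 0.13, HLA-G by 2.62 ± 0.12, and HLA-C by 2.19 ± 0.12. Probe sets of these near-identical genes can share targets, so the 3 are uncertain as separate measurements. NLRC5, the transactivator of class I genes, rose by 2.12 from 99.7 and 140 to 462 and 569. TAP1, a subunit of the peptide transporter, was at 708 and 722 with control siRNA and 2554 and 3406 with ID1 siRNA, a rise of 2.04 ± 0.12. B2M, the shared light chain, was already at 18087 and 27820 and had a change of 0.35 that was not called.

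The proteasome gave a contrast within 1 complex. PSMB8, PSMB9 and PSMB10 encode the catalytic subunits of the immunoproteasome, which replace PSMB5, PSMB6 and PSMB7 of the constitutive form. PSMB9 rose from 476 to 1939 and from 446 to 2090, by 2.13 ± 0.11, PSMB8 by 1.56 ± 0.11 and PSMB10 by 0.73 ± 0.12. PSMB5 fell by 0.83 ± 0.09, from 8692 to 4893 and from 10255 to 5796 (limma adjusted p = 6.26e-04). PSMB6 fell by 0.43 (adjusted p = 0.0333), and PSMB7 by 0.43 just under the threshold, with another probe set at 1.06. Of 23 constitutive subunits, 0 were higher and 12 lower, median -0.41. All 23 were brighter on the EGF control than on the nicotine control, and after the signal-dependent shift was removed 7 were lower with a median of -0.15.

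Complement and acute phase genes, the secreted arm of innate defence, were higher in 7 of 12 and 6 of 11 tested, with 0 lower in either list. Another 2 and 4 were under the filter and were not tested. Of the untested acute phase genes, ORM1 and LBP had positive changes (2.56 and 1.26), and HP and CRP negative ones (-3.44 and -1.09). HP was at 52.5 and 76.5 with control siRNA and at 5.56 and 6.11 with ID1 siRNA. C1R, a protease of the classical pathway, rose from 319 to 2235 and from 219 to 2115, by 3.04 ± 0.21. CFB, the alternative pathway protease, rose by 2.92 ± 0.18, and C3, on which all pathways converge, by 1.83 ± 0.12 from 1603 and 1467 to 5301 and 5590. PTX3, a soluble pattern recognition protein, was at 83.5 and 93.8 with control siRNA and 1322 and 1833 with ID1 siRNA, a rise of 4.14 ± 0.21. LCN2, which binds bacterial iron carriers, rose by 2.17 and SOD2, the mitochondrial superoxide dismutase, by 1.54. The medians of 1.13 and 1.48 became 0.54 and 0.61 when genes dim in a group were set to their bound.

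Of 14 chemokines tested, 11 were higher and 0 lower, and 10 were at least 2-fold higher in both pairs. Another 10 of the 24 measured were under the filter and were not tested, so these counts do not cover them. The filter is on the mean of all 8 arrays, so CXCL11 and CXCL6, dim on the A549 control arrays, passed it through brighter arrays. CXCL11, which draws T cells through CXCR3, was at 25.2 and 8.84 on the control arrays and 330 and 329 with ID1 siRNA, at least 5.21-fold higher (limma adjusted p = 4.09e-04). CXCL10, on the same receptor, rose by 2.12 ± 0.31 from 147 and 70.4 to 474 and 413. CCL5, a T cell and monocyte chemokine, rose from 123 to 914 and from 126 to 1187, by 3.06 ± 0.14. Those 3 are classical interferon-induced chemokines, and the neutrophil chemokines moved with them. CXCL6 was at least 3.32-fold higher, CXCL2 rose by 1.86 and CCL20, on CCR6, by 2.39 ± 0.14. CXCL5 had a change of 0.06 that was not called, but it was called higher with quantile normalization (0.40, limma adjusted p = 0.0069) and with the mean of its probe sets (0.59, adjusted p = 0.0330).

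Cytokines followed, with 9 of 11 tested interleukins and growth cytokines higher and 0 lower. A further 11 of the 22 measured were under the filter and were not tested. IL6, an inducer of the acute phase, was at 189 and 183 with control siRNA and at 970 and 956 with ID1 siRNA, a rise of 2.37 ± 0.16 (adjusted p = 3.66e-05). CSF1, the macrophage growth factor, rose by 2.23, IL11 by 2.04 and EBI3, a subunit of IL27, by 1.91. CSF3, the granulocyte growth factor, was too dim to test, at 23.1 and 12.7 against 233 and 177. NF-kB feedback was uneven, 7 of 16 higher with a median of 0.25. TNFAIP3, a deubiquitinase that shuts NF-kB signalling off, rose from 803 to 2892 and from 651 to 3266, by 2.09 ± 0.19, and NFKBIZ by 1.16, while the inhibitor NFKBIA had 0.20 and the subunit RELA -0.06, neither called. With each array centred on its median, the NF-kB list median was -0.04.

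Among death receptors, their ligands and caspases 11 of 26 were higher and 2 lower. TNFSF10, the death ligand TRAIL, rose by 2.43 ± 0.35 and FAS, a death receptor, from 754 to 2326 and from 748 to 2149, by 1.57 ± 0.14. The inflammatory caspases CASP1 and CASP4 rose by 1.83 and 1.49. TNFRSF1A, the main receptor of TNF, fell by 0.63 and TNFRSF21 by 0.69. Immune ligands were higher in 10 of 19 and lower in 1. CD274, the checkpoint ligand PD-L1, was at 90.2 and 94.0 against 422 and 480, a rise of 2.29 ± 0.16, and ICAM1, which lets leukocytes adhere, rose by 1.88. CD58, another adhesion ligand, fell by 0.63. Of 14 genes of tryptophan and NAD metabolism 5 were higher, among them IDO1, which degrades tryptophan, by 1.09 and NAMPT, of NAD salvage, by 1.33.

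Of 23 collagens, laminins and other matrix genes 12 were higher and 1 lower, with a median of 0.47. COL13A1, a transmembrane collagen, rose from 97.0 to 986 and from 142 to 1007, by 3.09, although its other probe set gave 0.89. COL12A1 rose by 2.01 and COL4A1, of basement membranes, by 1.92, and LAMB2, a laminin chain, fell by 0.64. Among matrix proteases and inhibitors 13 of 26 were higher and 3 lower. PLAU, the urokinase activator of plasmin, rose from 1874 to 8634 and from 2925 to 9572, by 1.96 ± 0.17, and the gelatinase MMP2 by 1.78. MMP1, a collagenase, rose by 1.48 in A549 and had -1.46 in H1650. TIMP2, a metalloprotease inhibitor, fell from 8129 to 4926 and from 10874 to 5477, a change of -0.86 ± 0.13.

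CCN2, a matricellular protein that both TGF-beta and YAP raise, was at 451 and 496 with control siRNA and at 2777 and 2774 with ID1 siRNA, a rise of 2.55 ± 0.21. ANKRD1, a YAP target, was at least 5.47-fold higher, while CCN1, a close relative of CCN2, had 0.32 and was not called. In all 10 of 19 YAP and TEAD targets were higher and 1 lower, beside 13.7% higher and 11.3% lower of all genes tested. Of 16 TGF-beta and BMP outputs, 5 were higher and 1 lower. Contractile genes split, 5 of 18 higher and 4 lower. TAGLN, an actin cross-linker, rose by 2.01, with other probe sets from 0.11 to 3.58, and ACTA2, smooth muscle actin, by 1.64, while VCL, the adhesion protein vinculin, fell by 0.74. Integrins gave 1 higher and 1 lower of 13, and keratins and epithelial junctions 6 higher and 1 lower of 27. Both of those medians, 0.04 and 0.05, were near that of all genes, and with median centring they and the TGF-beta and contractile medians were below 0.

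Receptor feedback and immediate early genes were also higher in part. Of 25 EGF receptor ligands and ERK feedback genes, 10 were higher and 2 lower, led by DUSP10, a phosphatase of stress kinases (1.70), HBEGF, a ligand of the EGF receptor (1.57), and BTC, another ligand (1.48). EGFR itself had -0.25 and was not called. Immediate early genes, transcribed without new protein synthesis, were higher in 9 of 20 and lower in 0. EGR1 rose from 282 to 925 and from 461 to 1202, by 1.55 ± 0.21, and ATF3, also a stress gene, by 1.52.

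Targets of p53, the stress-activated growth suppressor, were higher in 12 of 25 and lower in 2. CDKN1A, which encodes the CDK inhibitor p21, rose from 3640 to 7053 and from 4019 to 7672, by 0.94 ± 0.11. MDM2, the ligase that degrades p53, rose by 1.00 ± 0.11, from 4477 and 3857 to 8207 and 8418. Their ID1 siRNA arrays stood above both controls, as for 34.8% of all genes tested, whereas CCNG1 and RRM2B fell by 0.64 and 0.53. Of 27 genes of the unfolded protein and integrated stress responses 10 were higher and 2 lower. VLDLR rose by 1.90 and TRIB3 by 1.16, and SLC7A5, an amino acid transporter, fell by 0.75. In glycolysis and hypoxia 5 of 30 were higher, near the 13.7% of all genes, and 7 lower, beside 11.3%, with HK2, hexokinase 2, at least 2.80-fold higher and LDHA, lactate dehydrogenase, lower by 0.60.

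Mitotic genes fell together by small amounts. Of 48 spindle, kinetochore and cytokinesis genes 31 were lower and 0 higher, beside 11.3% lower over all genes, and 47 had a negative change. None was 2-fold lower in both pairs, and the list median was -0.42 (-0.45 under nicotine, -0.40 under EGF). PRC1 was at 6890 and 7953 with control siRNA and 3825 and 3508 with ID1 siRNA, a change of -1.01 ± 0.11 (limma adjusted p = 6.01e-04). TPX2, which activates the kinase Aurora A on the spindle, fell from 4198 to 2466 and from 4757 to 2866, a change of -0.75 ± 0.10. ASPM, a spindle pole protein, fell from 3533 to 2089 and from 3352 to 2154, a change of -0.70 ± 0.09. Their ID1 siRNA arrays were below both controls, as for 27.5% of all genes tested. Under quantile normalization 30 were lower, with centring 44 and with the signal-dependent shift removed 30 (median -0.39). The EGF control was above the nicotine control for 23 of the 48. In bulk RNA, fewer cells in mitosis and less of these transcripts per cell cannot be told apart.

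DNA replication showed the same direction with fewer calls, 16 of 41 lower and 0 higher, median -0.29. LIG1, which joins Okazaki fragments, fell from 1312 to 619 and from 1509 to 647, a change of -1.15 ± 0.11, and FEN1, which trims their flaps, fell by 0.98 ± 0.14. MCM10, needed to start forks, fell by 0.71, and MCM2, of the replicative helicase, had -0.16 and was not called. Of 25 cyclins, CDKs and E2F factors 9 were lower and 1 higher. CCNE2, the S-phase cyclin E2, fell by 0.72 and CCNB1, mitotic cyclin B1, by 0.52, while CDK6 rose by 0.39 on the probe set used, although its others ranged from -1.39 to 1.14. In deoxynucleotide synthesis 8 of 18 were lower and 1 higher. RRM1, of ribonucleotide reductase, fell by 0.70 and thymidine kinase TK1 by 0.65, whereas TYMP, thymidine phosphorylase, rose by 1.26. Homologous recombination and Fanconi genes were lower in 4 of 18 and higher in 0.

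**Figure D4:**
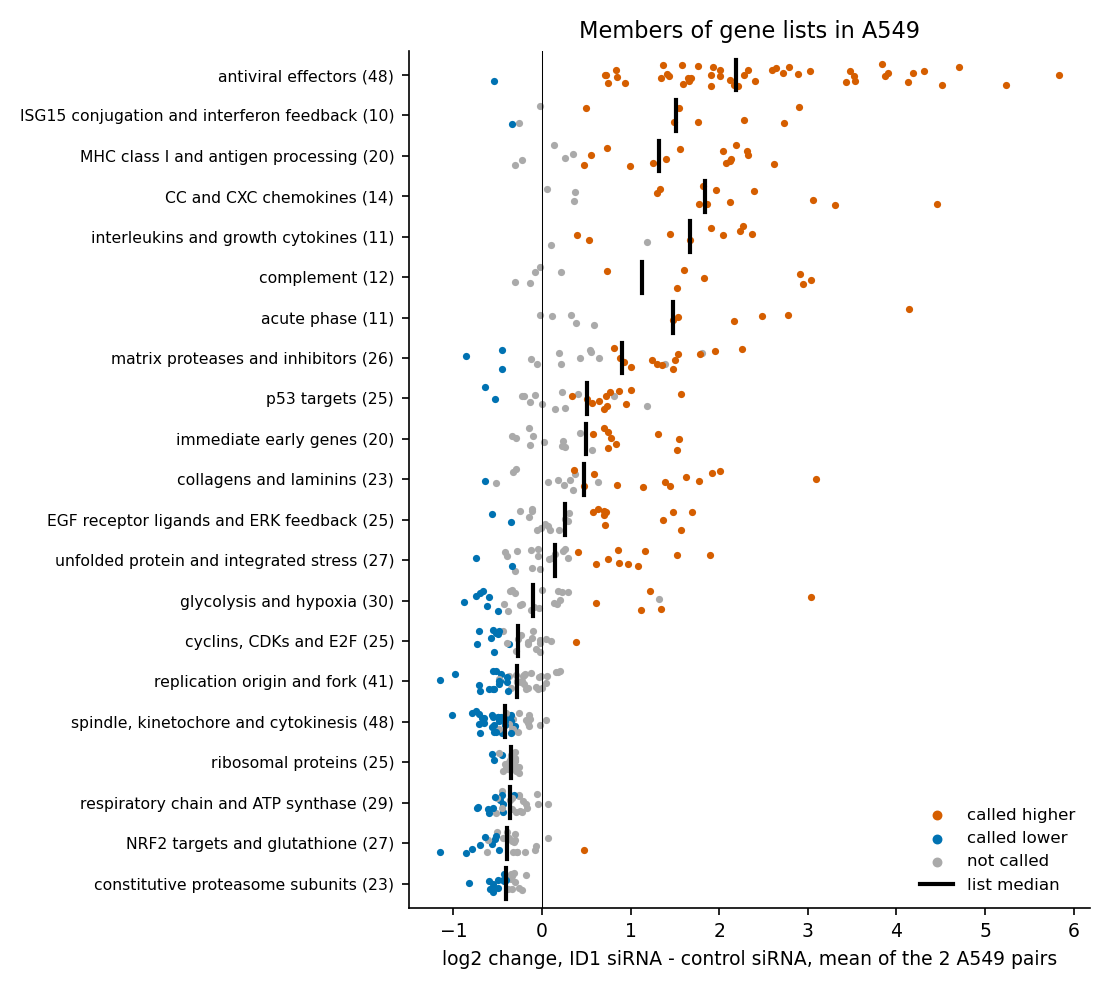
Log2 change in A549, mean of the 2 pairs, for every tested member of 21 gene lists, 1 point per gene, coloured by call, with the list median as a bar and the number tested in brackets. Antiviral effectors reach furthest right with a median of 2.19, and the 7 lists at the foot lie left of 0 with medians from -0.27 to -0.42.

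Other lists of abundant transcripts also had medians below 0, and these moved with the signal. Of 29 respiratory chain and ATP synthase genes 11 were lower and 0 higher, with medians of -0.23 under nicotine and -0.51 under EGF, and 26 were brighter on the EGF control than on the nicotine control. Of 25 ribosomal protein genes 3 were lower, near the 11.3% of all genes, with medians of -0.12 and -0.58, and all 25 were brighter on the EGF control. After the signal-dependent shift was removed, the median was -0.12 for the respiratory chain with 7 lower, and 0.06 for ribosomal proteins with 0 lower. NRF2 targets and glutathione genes were lower in 9 of 27 and higher in 1, median -0.40, and after that removal 6 were lower with a median of -0.19. ALDH3A1, an aldehyde dehydrogenase abundant in A549, fell from 24836 to 12961 and from 39620 to 15387, a change of -1.15 ± 0.22. GCLC, the limiting enzyme of glutathione synthesis, fell by 0.85 ± 0.10, and HMOX1, haem oxygenase 1, rose by 0.48.

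The genes lowered most in A549 include several that also fell in H1650. GSPT1, a translation termination factor, went from 7244 to 2386 and from 8069 to 2413 in A549, a change of -1.67 ± 0.11, beside -1.14 in H1650, although its 4 other probe sets ranged from -1.56 to 0.17 in A549. VAMP3, a vesicle fusion protein, fell from 5521 to 1991 and from 6672 to 1870, a change of -1.65, beside -1.58 in H1650. REEP5, an endoplasmic reticulum shaping protein, had -1.58 in A549 and -1.76 in H1650. AXL, a receptor tyrosine kinase, was at 5664 and 6736 with control siRNA and 1899 and 2502 with ID1 siRNA, log2 changes of -1.58 and -1.43 in the pairs, and had -1.45 in H1650, although its other probe set gave -0.14 in A549. Others fell further in A549 than in H1650 by the test of the difference. AQP3, which passes water and glycerol through membranes, was at 5561 and 7587 against 1976 and 1588, a change of -1.87 ± 0.17, and had 0.04 in H1650 (difference -1.91, adjusted p = 0.00191), while its other probe sets gave -0.66 and -0.42 in A549. NPTX1, a neuronal pentraxin, fell by 1.60 and had 0.21 in H1650 (difference -1.80, adjusted p = 0.0110). Its H1650 control siRNA signals were 79.5 and 103, near the filter of 67.7, so a fall could hardly show there. INSL4, a placental insulin-like peptide, fell by 1.61 in A549 and is dim in H1650, and its difference between lines was not called (-1.09, adjusted p = 0.0547).

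Of the 71 genes at least 2-fold lower in both A549 pairs, 16 were so in both H1650 pairs as well, which is 22.5% of the A549 list and 18.2% of the 88 in H1650. They include ID1, AXL, VAMP3, REEP5, HIPK3, a nuclear kinase, PCBP1, an RNA-binding protein, and GALNT7, a glycosyltransferase. Of the 476 at least 2-fold higher in both A549 pairs, 16 were so in H1650, 3.36% of the A549 list and 26.2% of the 61 in H1650. The median H1650 change was -0.51 over the A549 lowered genes and 0.02 over the raised ones. Called for a difference between lines were 31 of the 71 and 331 of the 476.

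**Figure D5:**
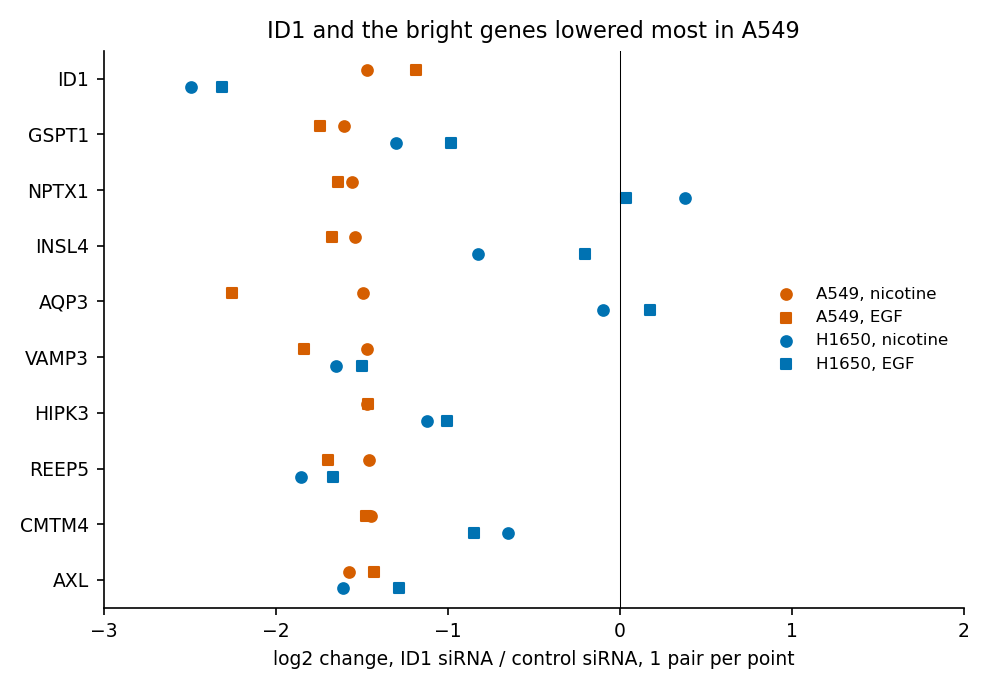
Log2 change in each pair for ID1 and the 9 genes lowered most in A549 that stay above the filter, A549 in orange and H1650 in blue, circles for nicotine and squares for EGF. VAMP3, REEP5 and AXL lie at like values in both lines, and the H1650 points of NPTX1 and AQP3 lie near 0 while those of A549 lie below -1. The H1650 signals of NPTX1 are near the filter.

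For all genes, 863 had a higher change in A549 than in H1650 (6.90%) and 610 a lower one (4.87%) by the limma test of the difference. In H1650 706 were called higher (5.64%) and 825 lower (6.59%). Antiviral effectors took opposite directions in the lines: 33 of 48 were called lower in H1650 and 0 higher, and 46 of 48 were called for the difference. Lower calls in H1650 numbered 7 of 13 for RNA and DNA sensors and adaptors, 3 of 5 for APOBEC3 deaminases and 7 of 20 for MHC class I. They numbered 3 of 10 for ISG15 conjugation and feedback, 3 of 12 for interferons and receptors and 0 of 3 for guanylate-binding proteins. Each of these groups had 0 higher, and STAT and IRF factors had 4 of 15 lower and 1 higher. MX1, a GTPase that traps viral nucleocapsids, was at 361 and 615 with control siRNA and 5755 and 7894 with ID1 siRNA in A549, and at 16098 and 10308 against 7663 and 4940 in H1650. LAMP3, an interferon-induced lysosomal membrane protein, was at 134 and 163 against 1563 and 1876 in A549 and at 4179 and 1988 against 1717 and 1199 in H1650. With control siRNA both genes were far brighter in H1650, and with ID1 siRNA the lines lay closer together.

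With control siRNA the median antiviral effector was 2.48 lower in A549 than in H1650 on the log2 scale, and with ID1 siRNA 0.57 higher. A549 was below H1650 under both stimuli for 44 of 48 with control siRNA and for 9 with ID1 siRNA. For MHC class I the median difference went from -1.55 to 0.02. Chemokines went from -0.74 to 1.29 and complement from 0.92 to 3.42, so that the lines lay further apart with ID1 siRNA. Over all genes tested it was -0.04 and 0.01. The spindle list ran the other way, from 0.06 to -0.99, with 31 of 48 called higher in H1650, 0 lower, and 41 called for the difference. TPX2 rose by 0.47 in H1650 (adjusted p = 0.0182), from 6354 to 8427 and from 5482 to 7892. Replication genes were called higher in H1650 for 15 of 41 and for the difference, lower in A549, for 24.

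The pairs differed most where signals were low. The 6 genes whose change was furthest above in the EGF pair and the 6 furthest above in the nicotine pair all had both A549 group means under the filter, so no fold is given for them.

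In the remaining lists, calls are read beside 13.7% higher and 11.3% lower over all genes. Of 8 nicotinic receptor subunits and of 6 MHC class II genes 0 were called by limma (1 each at an unadjusted p under 0.05). Prostaglandin synthesis had 3 of 13 higher and 0 lower, Notch genes 4 higher and 2 lower of 16, and RNA interference genes 1 and 1 of 12. Of 6 CDK inhibitors 1 was higher and 1 lower. Cholesterol and fatty acid synthesis had 7 higher and 4 lower of 21, lysosome and autophagy 12 and 1 of 28, and metallothioneins and zinc genes 7 and 1 of 11. With median centring the prostaglandin, Notch, cholesterol and lysosome medians were below 0. The epithelial identity of A549 was checked by KRT8 and KRT18, keratins of simple epithelium, at 20209 to 31711 and 26808 to 47576 over the 4 arrays. KRT18 was not called, and KRT8, not called with a change of -0.21, was called lower with median centring (-0.50, limma adjusted p = 0.0437) and without the nicotine pair (-0.45, adjusted p = 0.0393). Alveolar and lung markers were higher in 4 of 13, simple epithelial markers in 3 of 8, fibroblast markers in 1 of 3, endothelial markers in 0 of 1 and blood cell markers in 0 of 3 by limma (1 and 0 at an unadjusted p under 0.05), with 0 lower in each list. NKX2-1, the lung lineage factor, was under the filter.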

How the data were processed

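RNA of 10 samples was hybridized to Affymetrix U133 Plus 2.0 arrays, 1 per line and condition. The deposited values are linear signal intensities, for which the submitters' processing notes name GCOS 1.4 and MAS5. They were scaled before deposit to a 2% trimmed mean of 500. The labels mention a log2 transformation that the values have not had, so log2 was taken here. The number of arrays limits the precision.

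All 10 columns were mapped to samples by the labels, and 8 stimulated arrays were used. Of 54675 probe sets, 62 controls, 1801 with several symbols and 11777 with no annotated gene were left out. Each of 19775 genes was represented by its brightest probe set on average, and 12514 whose mean log2 signal reached 6.08 (a signal of 67.7, the median of all probe sets) were tested. Genes that the annotation does not name were not analysed here.

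Limma 3.58.1 in R 4.3.3 fitted an ID1 siRNA term per line, blocked by the 4 pairs of line and stimulus, with 2 residual degrees of freedom, an intensity trend and Benjamini-Hochberg adjustment over all genes tested. Limma moderated each gene's spread towards that of genes of like signal, with 6.50 prior degrees of freedom. The ± values are standard errors after that moderation. The pairing comes from line and stimulus in the labels. The script was tested on simulated data. The 52 gene lists and the genes in view were chosen with earlier results of these data known, so lists are given as counts and medians without a test.

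Named genes are ID1, up to 15 per direction with the largest change among calls at least 2-fold in both pairs, up to 6 called members per list and direction and up to 3 uncalled central ones, and up to 6 per direction for differences between pairs and lines. A selection of these is named. CXCL2, GALNT7, PCBP1, PSMB10, PSMB8 and TAP1 were added after their values were seen. Alternatives were other scalings, filters, probe set rules, tests and arrays.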

Additional observations from a re-analysis of the deposited data

Results flagged for a closer look

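The effect of ID1 siRNA differed between the lines by the limma test of the difference for 863 genes with a higher change in A549 and 610 with a lower one. The difference for ID1 itself was 1.08, because ID1 fell less in A549.

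The named genes with a higher change in A549 were IFI44L with a log2 difference of 6.77, XAF1 with 6.16, CMPK2 with 5.80, BST2 with 5.70, CXCL11 with 5.61 and RSAD2 with 5.46. Mean control siRNA signals of IFI44L, BST2, CXCL11 and RSAD2 in A549 were under the filter, so these 4 differences are not exact sizes. In H1650, CMPK2 was at 10067 and 4185 with control siRNA and at 2830 and 1584 with ID1 siRNA, and BST2, at 6455 and 5260 against 6963 and 5846, was not called.

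The 6 genes with the largest differences to a lower change in A549 were dim in at least 1 of the lines. FAM81A had a difference of -3.10 and MYOZ3 of -2.74, both with a mean A549 ID1 siRNA signal under the filter. In H1650 FAM81A was dim as well, at 72.4 and 55.2 with ID1 siRNA. In A549 the other FAM81A probe set gave -0.94 and the other MYOZ3 probe set 0.20. MPND had -2.67 with a change of -0.06 in A549 and 2.62 in H1650, where its control siRNA signals were 10.4 and 18.3. TMEM156 had -2.63, LNCAROD -2.50 and IKBKB-DT -2.42, none called within A549, while their H1650 control siRNA signals were under the filter.

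The nicotine and EGF pairs also had opposite directions, at least 2-fold in each single pair, for 31 genes (0.248% of those tested). Of these, 28 had a control or ID1 siRNA mean under the filter. That difference was not tested, since each stimulus has 1 pair.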

How the results depend on the processing

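Counts of calls depended on the scaling and the test. With each array centred on its median, 939 genes were higher and 3953 lower in A549, 1807 had a lower change in A549 than in H1650, and 315 and 220 were at least 2-fold higher and lower in both pairs. With the mean of all probe sets 1037 were higher and 698 lower, and 388 and 247 had a higher and a lower change in A549 than in H1650. Without the intensity trend these 4 counts were 947, 440, 177 and 20, and the ID1 difference of 1.08 between lines was not called (adjusted p = 0.0794). With no replicate block, that is without the matched pairs, 572 and 372 differed between lines. With no filter 397 had a lower change in A549. At 1.5-fold 1152 and 433 were higher and lower in both pairs and 108 opposite, and with 16 added to the signal 13 were opposite. Leaving out the nicotine or the EGF pair, which pools the spread from H1650, gave 911 to 1479 higher and 660 to 1240 lower genes, 616 to 997 with a higher and 383 to 828 with a lower change in A549, always fewest without the EGF pair. ID1 fell by 1.18 to 1.47 and differed between lines by 0.93 to 1.22. A removal of the signal-dependent shift within pairs, chosen after seeing the data, left 2879 calls, 2436 of them among the 3129.

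Over 154 named genes, 1557 comparisons with an alternative kept direction and call, 92 lost the call, 24 gained one and 10 turned the direction. The turned ones were CXCL5 (-0.23 with centring, -0.22 to 0.34 with 1 pair left out), NFKBIA (-0.089 with centring), KRT18 and KRT8 (0.014 and 0.14 with quantile normalization, KRT8 -0.45 to 0.031 with 1 pair left out), LNCAROD (-0.16 to 0.080 with 1 pair left out), MYOZ3 (0.20 with the probe set chosen on A549 arrays), and PSMB7 and ZC3HAV1 (0.31 and 0.12 with the mean of all probe sets). The cause was not tested beyond the change of setting itself.

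Low signals limit some calls. Of the calls, 38 had both A549 groups under the filter, 180 higher calls had a dim control group and 22 lower calls a dim ID1 siRNA group.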
